A study of Danio rerio with 10 samples.

Results

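Keratins, claudins and the other genes of epithelial filaments, junctions and envelopes were followed in whole zebrafish embryos of the earl grey (egy) line. The genes were chosen by name: 71 of 8793 genes with a single symbol on the array have a symbol that begins with krt, cyt1, cldn, evpl, dsp, jup, pkp, tgm, epcam, anxa, ocln or tjp, or is ppl or cdh1. They comprise 15 keratins, 24 claudins, 4 occludin and tjp genes, 8 desmosome and plakin genes, 2 adhesion genes (cdh1 and epcam), 3 transglutaminases, 14 annexins and krtcap2, which the letters caught although it is not a keratin. Each gene is represented by its probe set with the highest mean signal. For 62 of the 71 that probe set lay above the limit on low signals and was tested.

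Egy embryos carry the recessive cz3 allele in the AB/WIK background. Heterozygous adults were mated in pairs, the offspring were kept at 28 °C, and whole embryos were sorted by their looks into pools of mutants and pools of normal-looking siblings, which may include heterozygotes. The groups were mutants at 5 days (120 hours after fertilization, 3 pools), siblings at 5 days (3 pools), mutants at 3 days (72 hours, 2 pools) and siblings at 3 days (2 pools). RNA of each pool was hybridised to 1 Affymetrix zebrafish array.

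The larval skin of zebrafish consists of an outer periderm over a basal layer of keratinocytes. Keratins pair as type I and type II proteins into filaments, which desmosomes anchor at the cell border through plakins, plakoglobin and plakophilins. Claudins and occludin seal the paracellular space at tight junctions, cadherin 1 and Epcam hold epithelial cells together, transglutaminases cross-link proteins, and annexins bind membrane phospholipids in the presence of calcium. The same families also serve the gut, kidney, glia and vessels, so a whole-embryo signal sums several tissues.

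The gene disrupted in the line, sart3, was lower in mutants: 105, 132 and 809 signal units in day 5 mutants against 1771, 2586 and 2036 in day 5 siblings, and 462 and 648 in day 3 mutants against 2526 and 2517 in day 3 siblings. Mutant day 5 replicate 3 had the highest sart3 signal of the mutant pools. Some labels conflict: the strain label of sibling day 3 replicate 2 calls it mutant, and the source labels of sibling day 5 replicate 2 and mutant day 5 replicate 3 give day 4. The first of these arrays had a Spearman correlation of 0.988 with the other day 3 sibling array and of at most 0.981 with a day 3 mutant array. Its sart3 signal of 2517 lay close to that of the other day 3 sibling and far above both day 3 mutants. Within groups the correlation lay between 0.968 and 0.988. Of 10 epidermis markers, 7 are themselves among the genes studied. The summed signal of the 10 markers lay between 223319 and 245487 in day 5 mutants against 197374 to 234868 in day 5 siblings. On day 3 it lay between 194560 and 195371 in mutants against 170003 to 174251 in siblings. Most of it came from krt4 and krt5, both among the genes studied. Their day 5 mutant means were 93295 and 52964, of a mean sum of 234428. None of the 10 markers was below the limit on low signals. In bulk RNA, fewer cells of a type and less RNA per cell cannot be told apart.

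Averaged over both days, 8 of the 62 genes tested were higher and 9 lower in mutants than in siblings (limma, Benjamini-Hochberg adjusted p under 0.05). These are 12.9% and 14.5% of the genes tested, against a background of 8.24% higher and 9.30% lower among all 7279 genes tested. The median log2 difference of the 62 was 0.08, against -0.01 over all genes. The higher genes were the annexins anxa2a, anxa1b and anxa6, the claudins cldn11a and cldni, the keratins krt18a.1 and krt4, and the occludin oclna. The lower genes were the transglutaminase tgm1l3, the plakins evplb and ppl, the keratins krt97, krt15 and krt1-19d, the annexins anxa4 and anxa5b, and the claudin cldn3c. Of these, tgm1l3 passed the limit on low signals only through the day 5 siblings. All 17 had the same sign on both days, which is partly built in, because they were picked on the average of the 2 days. Differences of these 17 were small except for tgm1l3: the 8 higher genes lay between 0.22 and 0.59 and the other 8 lower genes between -0.21 and -0.49 on the log2 scale. A larger positive difference, 0.76, was that of tgm2b, which did not pass without the replicate number as a block. With each array centred on its median the split was 8 higher and 5 lower. The counts also moved when 1 array was left out. Higher genes numbered 3 without mutant day 3 replicate 2 or sibling day 3 replicate 1, 4 without mutant day 3 replicate 1 or sibling day 3 replicate 2, and 5 without sibling day 5 replicate 2. Lower genes numbered 3 without mutant day 3 replicate 2, 4 without sibling day 3 replicate 1, and 5 without mutant day 3 replicate 1, sibling day 3 replicate 2, mutant day 5 replicate 1 or sibling day 5 replicate 2. They numbered 12 without mutant day 5 replicate 3, the mutant pool with the most sart3 signal. Over all probe sets tested, that setting gave 971 higher and 1318 lower, against 808 and 1098 with all arrays. Without each of the other arrays named here the calls over all probe sets fell. In all 9 lower genes mutant day 5 replicate 3 had the highest signal of the 3 day 5 mutant pools, and in the 8 higher genes it lay nearest to the siblings in 3. The same count over all genes was not made, and the 17 were picked from these arrays. These counts therefore cannot tell a trait of these genes from one of the whole array. The counts with sibling day 3 replicate 2 taken as a mutant are given in the last section. With that label the averaged calls over all probe sets fell too. Why the counts moved with that label or with mutant day 5 replicate 3 was not tested.

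**Figure D1:**
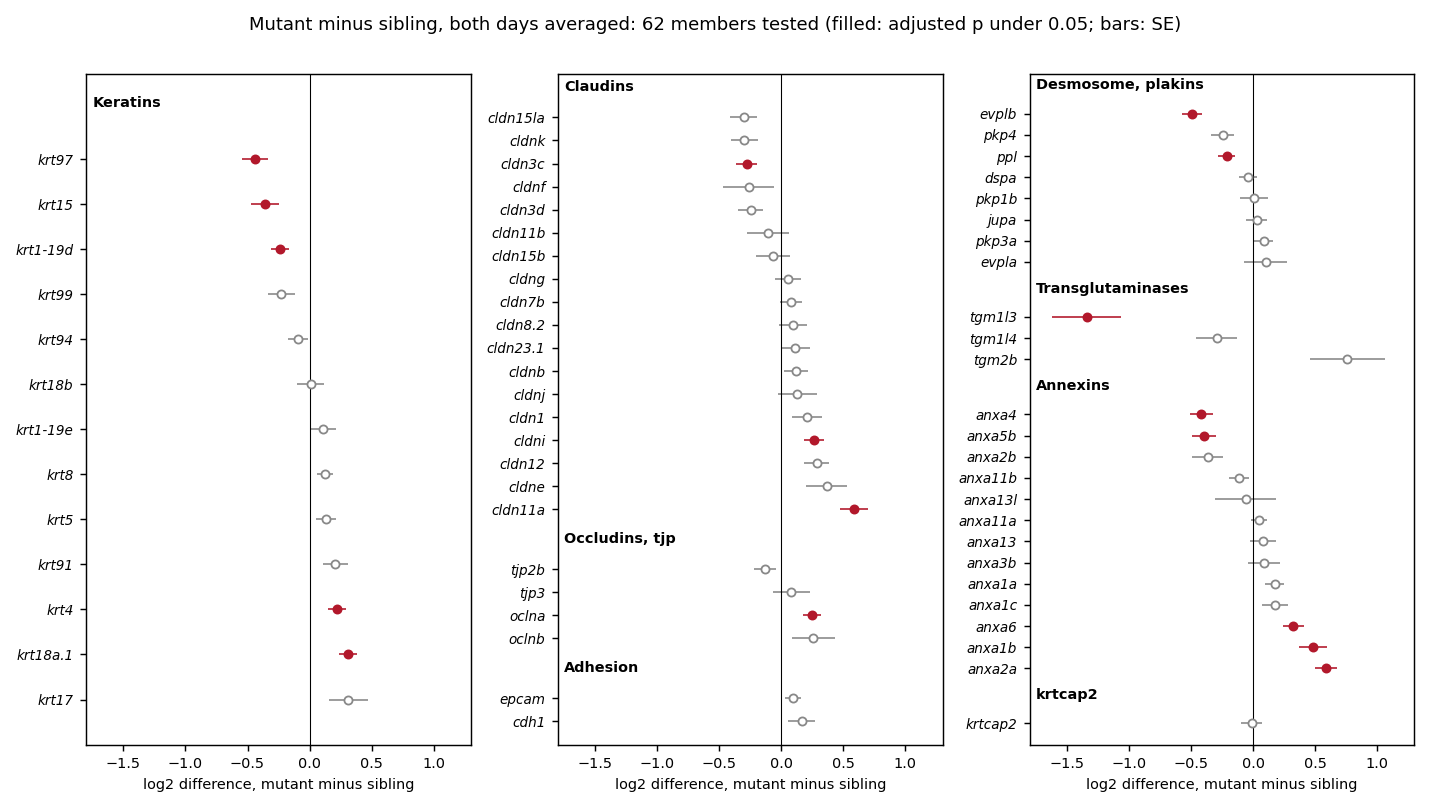
Log2 difference, mutant minus sibling, averaged over both days, for the 62 genes tested, arranged by role, with standard errors. Filled points have an adjusted p under 0.05, and tgm1l3 at -1.34 stands farthest from 0. It passed the limit on low signals only through the day 5 siblings, so its place and its p-value rest on that group.

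The cornified envelope of mammalian skin is a protein shell cross-linked by transglutaminases, with envoplakin and periplakin among its earliest parts. tgm1l3, a gene of the transglutaminase 1 family, had the largest difference of the 62 genes in this comparison. Its signal was 238, 146 and 659 in day 5 mutants against 1287, 1352 and 1310 in day 5 siblings. On day 3 it was 114 and 97.7 in mutants against 157 and 300 in siblings. Mutant and sibling arrays did not overlap on either day. However, both day 3 mutants, 1 day 3 sibling and 1 day 5 mutant lay below the signal limit of 223, where values are uncertain. The mean of tgm1l3 passed that limit only through the high day 5 siblings. Its place among the 62 genes and its p-values therefore rest on that group. The averaged log2 difference was -1.34 ± 0.28 (SE), or 2.53-fold lower in mutants (limma adjusted p = 0.00574), and the day 5 difference was -1.94 ± 0.35 (adjusted p = 0.00259). Leaving out mutant day 5 replicate 3 gave -1.60 averaged and -2.45 on day 5. A pseudocount of 50% of the median signal gave -0.86 and -1.36, both still past the threshold (0.00355 and 7.56e-04). When sibling day 3 replicate 2 was counted as a mutant, as its strain label has it, the averaged adjusted p was 0.129 and the day 5 value 0.0106.

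evplb, an envoplakin gene, was lower by a smaller step and with less spread. Its signal was 2281, 2489 and 2761 in day 5 mutants against 4467, 4427 and 3911 in day 5 siblings, and 2103 and 2192 in day 3 mutants against 2639 and 2439 in day 3 siblings. Groups were apart on both days, and the gap was wider on day 5. The log2 difference was -0.75 ± 0.11 on day 5 (1.68-fold lower, limma adjusted p = 4.58e-04) and -0.49 ± 0.08 averaged (adjusted p = 0.00153). It passed under each alternative tried in both comparisons. Its paralogue evpla had low signals of 375, 254 and 265 in day 5 mutants against 439, 215 and 329 in day 5 siblings, with an averaged difference of 0.10 ± 0.17 (adjusted p = 0.747). ppl, periplakin, the plakin that pairs with envoplakin in mammals, had 6559, 6921 and 7020 in day 5 mutants against 7674, 8382 and 8048 in day 5 siblings, and 5446 and 5219 in day 3 mutants against 6180 and 6062 in day 3 siblings. Its groups did not overlap on either day, yet the difference was only -0.21 ± 0.07 (adjusted p = 0.0412). Leaving out any of 8 arrays ended that call (adjusted p up to 0.144), all but sibling day 5 replicate 1 and mutant day 5 replicate 3, and with replicate numbers as a block the adjusted p was 0.0576.

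The other transglutaminases did not pass in the fit without a block. tgm1l4 had 330, 273 and 260 in day 5 mutants against 483, 337 and 340 in day 5 siblings, with an averaged difference of -0.29 ± 0.17 (limma adjusted p = 0.267). tgm2b, related to mammalian tissue transglutaminase, was higher in mutants within each same-numbered day 5 pair: 1980, 1012 and 511 in mutants against 773, 379 and 336 in siblings. Both groups spread so widely that they overlapped. The day 5 difference was 1.03 ± 0.38 with an adjusted p of 0.0955, and with the replicate number as a block it was 1.03 ± 0.18 with an adjusted p of 0.00292. Averaged over both days, the tgm2b difference of 0.76 was the largest positive one of the 62 genes. It did not pass without the block, and with the block it was 0.76 ± 0.14 (limma adjusted p = 0.00407).

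**Figure D2:**
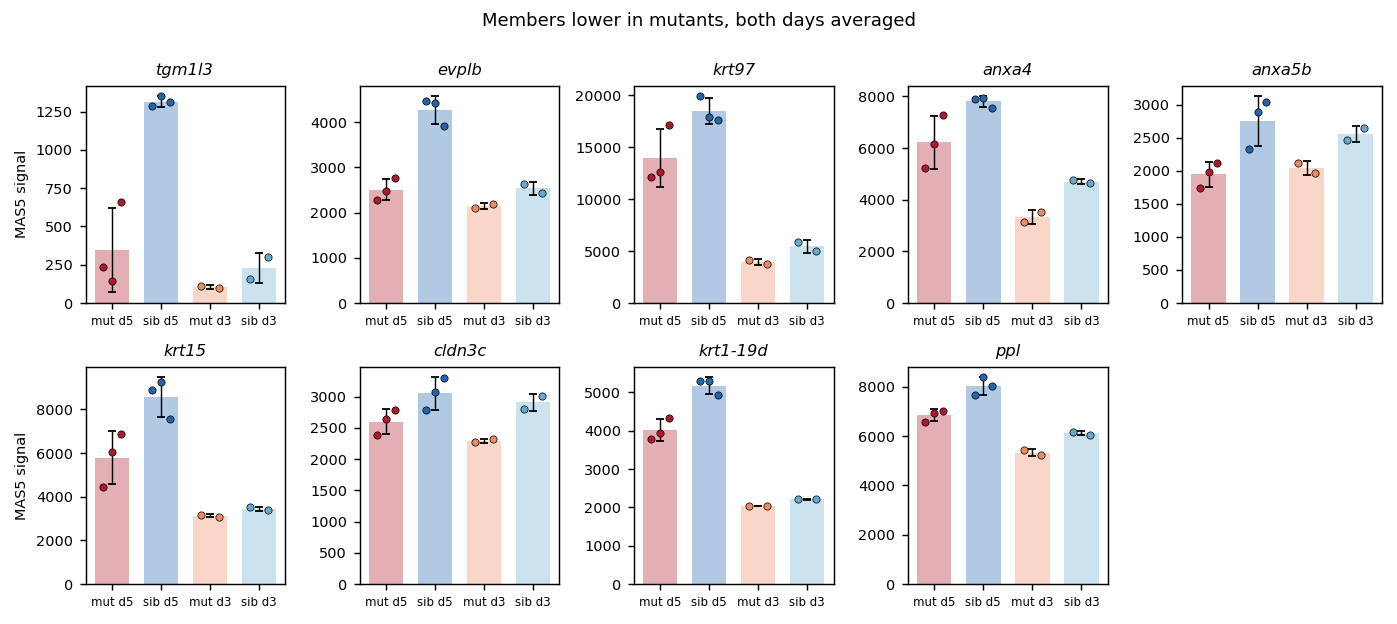
MAS5 signal in each pool for the 9 genes lower in mutants, averaged over both days; bars are group means, error bars are SDs, and points are arrays (n = 3 per group on day 5 and 2 on day 3). The 3 day 5 sibling points of tgm1l3 lie between 1287 and 1352, above the highest day 5 mutant point at 659. This gene passed the limit on low signals only through those siblings.

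Among 13 keratins tested, 2 were higher and 3 lower in mutants, and 8 did not pass. The background over all genes tested was 8.24% higher and 9.30% lower. krt97 had 12087, 12639 and 17154 in day 5 mutants against 19928, 17924 and 17626 in day 5 siblings, and 4139 and 3725 in day 3 mutants against 5899 and 4998 in day 3 siblings. Its groups were apart on both days, with mutant day 5 replicate 3 close to the lowest sibling. The averaged difference was -0.44 ± 0.10 (limma adjusted p = 0.0112). That call ended without mutant day 3 replicate 2 or sibling day 3 replicate 1, with adjusted p between 0.0529 and 0.0698. krt15, a type I keratin, had 4455, 6050 and 6874 in day 5 mutants against 8911, 9263 and 7548 in day 5 siblings, and 3178 and 3085 in day 3 mutants against 3510 and 3386 in day 3 siblings. Most of its difference lay on day 5, at -0.58 ± 0.14 (adjusted p = 0.0158). krt1-19d, another type I keratin, had 3782, 3939 and 4335 in day 5 mutants against 5301, 5306 and 4919 in day 5 siblings, a difference of -0.36 ± 0.09 (adjusted p = 0.0209). The averaged calls of both were close to the threshold, at -0.36 ± 0.11 for krt15 (adjusted p = 0.0452) and -0.24 ± 0.07 for krt1-19d (0.0422). Leaving out 1 array ended them for 8 and 9 of the 10 arrays, with adjusted p up to 0.143 and 0.135, and the replicate block ended that of krt1-19d (0.0633). A second krt1-19d probe set did not pass either, at -0.30 ± 0.12 averaged (adjusted p = 0.123) and -0.41 ± 0.16 on day 5 (0.101). krt15 kept its averaged call without mutant day 5 replicate 3 or sibling day 5 replicate 3, and krt1-19d without mutant day 5 replicate 3. On day 5 alone krt15 lost its call without sibling day 5 replicate 1 or 2 (adjusted p up to 0.0707), and krt1-19d without replicate 1 or 2 of either day 5 group (up to 0.085).

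krt18a.1, a simple-epithelium type I keratin, was higher, with 10561, 11365 and 9755 in day 5 mutants against 8162, 8503 and 7948 in day 5 siblings, and 7722 and 8901 in day 3 mutants against 6624 and 7205 in day 3 siblings. Neither day's groups overlapped, and the averaged difference was 0.31 ± 0.07 (limma adjusted p = 0.0129). Without mutant day 3 replicate 2 or sibling day 3 replicate 1 its adjusted p was between 0.0653 and 0.0761. krt8, the type II keratin with which keratin 18 pairs in mammals, differed by 0.12 ± 0.06 (adjusted p = 0.219). krt4, a keratin of the zebrafish periderm, had 91261, 92451 and 96175 in day 5 mutants against 94081, 79348 and 75414 in day 5 siblings, which overlapped, and 82932 and 82199 in day 3 mutants against 71056 and 66256 in day 3 siblings. Its averaged difference of 0.22 ± 0.07 (adjusted p = 0.0483) lost its call when any array other than sibling day 5 replicate 1 was left out (up to 0.186), and with the replicate block (0.107). krt5, a type II keratin, and krt91, krt17 and krt1-19e, which with krt4, krt8, epcam and anxa1a have the highest mean signals of the set, differed by 0.13 ± 0.08, 0.21 ± 0.10, 0.31 ± 0.16 and 0.11 ± 0.11, with adjusted p of 0.313, 0.179, 0.21 and 0.534. With the replicate block the adjusted p of krt17 was 0.0264. The keratins' median difference was 0.11, with 8 of 13 estimates above 0. krt99, krt94 and krt18b, the remaining keratins tested, gave differences between -0.23 and 0.01.

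Of 18 claudins tested, 2 were higher and 1 lower in mutants, against a background of 8.24% higher and 9.30% lower over all genes tested. cldn11a, whose mammalian relative forms junctions in myelin and testis, had 3295, 4085 and 3720 in day 5 mutants against 2735, 2992 and 2952 in day 5 siblings. On day 3 its signal was 1773 and 2465 in mutants against 1005 and 1317 in siblings. Groups were apart on both days, and day 3 had the larger gap. The averaged difference was 0.59 ± 0.11 (limma adjusted p = 0.00376), and no single array left out ended that call. Counting sibling day 3 replicate 2 as a mutant did, with 0.57 and an adjusted p of 0.0636. Of 6 myelinating-glia markers, mbpa, cd59a and egr2b were lower and none was higher, against a background of 9.30% lower. sox10 (0.20 ± 0.12), mbpb (-0.05 ± 0.09) and olig2 (-0.03 ± 0.10) did not pass. The summed signal of the 6 was 7541 to 8104 in day 5 mutants against 9723 to 10446 in day 5 siblings. On day 3 it was 6603 to 6626 in mutants against 7016 to 7806 in siblings. None of the 6 was below the limit on low signals, and their part in the cldn11a result was not tested. cldnk, a claudin of zebrafish myelinating glia, had 1770, 1477 and 1665 in day 5 mutants against 2198, 1945 and 2167 in day 5 siblings, which were apart, with an averaged difference of -0.30 ± 0.11 that did not pass (adjusted p = 0.0909).

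cldni, a claudin of zebrafish skin, had 9795, 11906 and 9955 in day 5 mutants against 8252, 8352 and 9384 in day 5 siblings, and 13050 and 12741 in day 3 mutants against 10103 and 11734 in day 3 siblings. The difference was 0.26 ± 0.08 (limma adjusted p = 0.0435), and 0.0528 was the adjusted p with the replicate block. cldn3c was the lower claudin, with 2380, 2635 and 2787 in day 5 mutants against 2782, 3075 and 3299.8 in day 5 siblings and -0.28 ± 0.08 averaged (adjusted p = 0.0361). Its day 5 groups overlapped by a small margin, while those of cldni did not. Leaving out any of 7 arrays ended each of these calls, with adjusted p up to 0.204 for cldni and 0.135 for cldn3c. The arrays whose loss ended neither were mutant day 5 replicate 3, and for cldni also mutant day 5 replicate 1 and sibling day 5 replicate 3, for cldn3c also sibling day 5 replicate 1 and mutant day 5 replicate 2. The skin claudins cldnb and cldne differed by 0.12 ± 0.10 and 0.37 ± 0.16 (adjusted p = 0.455 and 0.156). cldn15la, a claudin of the zebrafish intestine, differed by -0.30 ± 0.11 (adjusted p = 0.0799). The other 11 claudins tested lay between -0.26 and 0.28, and none passed. The replicate block gave adjusted p of 0.0349 for cldn15la and 0.0371 for cldn12, at 0.28 ± 0.08.

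At the tight junction, oclna, an occludin gene, had 5839, 5561 and 6287 in day 5 mutants against 4557, 4638 and 5137 in day 5 siblings, and 4396 and 4617 in day 3 mutants against 3729 and 4157 in day 3 siblings. Groups were apart on both days at a difference of 0.25 ± 0.07 (limma adjusted p = 0.0411). The call ended without any of 8 arrays (up to 0.183), and held without mutant day 5 replicate 2 or sibling day 5 replicate 3. Its paralogue oclnb, at 294, 501 and 330 in day 5 mutants against 208, 273 and 376 in day 5 siblings, differed by 0.26 ± 0.17 averaged (adjusted p = 0.351). The scaffold genes tjp2b and tjp3 differed by -0.13 ± 0.09 and 0.08 ± 0.15 (0.37 and 0.777).

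Of 13 annexins tested, 3 were higher and 2 lower, against a background of 8.24% higher and 9.30% lower over all genes tested. anxa2a, whose mammalian relative links membranes to actin, had 5709, 5259 and 5935 in day 5 mutants against 3414, 2894 and 2959 in day 5 siblings. On day 3 it had 1674 and 2120 in mutants against 1568 and 1430 in siblings. The groups were apart on both days, widely so on day 5, at 0.86 ± 0.12 (1.81-fold higher, limma adjusted p = 3.47e-04), and the averaged difference was 0.59 ± 0.09 (adjusted p = 8.31e-04). It passed under each alternative in both comparisons. s100a10b, from the S100a10 family whose mammalian protein binds annexin A2, also rose, by 0.28 ± 0.07 averaged (adjusted p = 0.0185), while the second gene for annexin 2, anxa2b, had 2201, 1722 and 2609.7 in day 5 mutants against 3442, 2499.9 and 2647 in day 5 siblings. That was -0.37 ± 0.13 averaged (adjusted p = 0.0666), and -0.37 ± 0.11 with the replicate block (0.0377).

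anxa1b had 4986, 5457 and 4477 in day 5 mutants against 2599, 2876 and 3902 in day 5 siblings, and 7234 and 6237 in day 3 mutants against 5046 and 5944 in day 3 siblings. Neither day's groups overlapped. The difference was 0.68 ± 0.14 on day 5 (limma adjusted p = 0.00771) and 0.48 ± 0.11 averaged (0.0123), and the averaged call ended without mutant day 3 replicate 1 or sibling day 3 replicate 1 (0.0561 to 0.0735). anxa6 had 3791, 3349 and 3149 in day 5 mutants against 2572, 2532 and 2319 in day 5 siblings, and 2334 and 2527 in day 3 mutants against 2309 and 1943 in day 3 siblings, at 0.32 ± 0.09 averaged (adjusted p = 0.0238). Its groups were apart on both days, narrowly on day 3, and its averaged call ended without mutant day 3 replicate 2, sibling day 3 replicate 2 or sibling day 5 replicate 3 (0.0584 to 0.121). anxa4 was lower, with 5232, 6157 and 7262 in day 5 mutants against 7899.7, 7952 and 7569.7 in day 5 siblings, and 3128 and 3511 in day 3 mutants against 4759.7 and 4635 in day 3 siblings. Groups did not overlap on either day at -0.42 ± 0.09 averaged (adjusted p = 0.00778), and no single array ended the call. A second anxa4 probe set gave -0.19 ± 0.13 (adjusted p = 0.341), and counting sibling day 3 replicate 2 as a mutant gave an adjusted p of 0.155. anxa5b, the zebrafish gene for the annexin used elsewhere to stain dying cells, had 1744, 1980 and 2121 in day 5 mutants against 2336, 2889 and 3048 in day 5 siblings, and 2116 and 1965 in day 3 mutants against 2467 and 2643 in day 3 siblings. It was apart on both days at -0.40 ± 0.10 (adjusted p = 0.0142), and the call ended without mutant day 3 replicate 2 or sibling day 3 replicate 2 (0.0568 to 0.0653). Its 2 other tested probe sets gave -0.45 ± 0.13 and -0.32 ± 0.13 (0.0296 and 0.11). The other 8 annexins tested, anxa2b included, lay between -0.37 and 0.18.

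**Figure D3:**
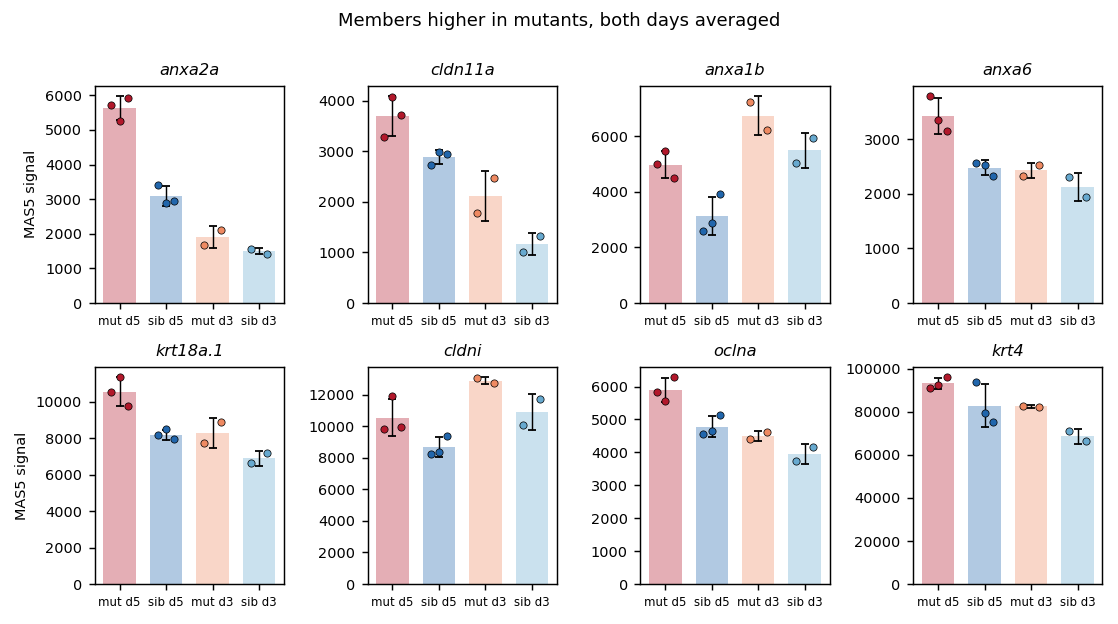
MAS5 signal in each pool for the 8 genes higher in mutants, averaged over both days; bars are group means, error bars are SDs, and points are arrays (n = 3 per group on day 5 and 2 on day 3). The day 5 mutant points of anxa2a, from 5259 to 5935, lie above the highest day 5 sibling point at 3414.

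Desmosome and adherens-junction genes outside the envelope plakins gave small estimates. dspa (desmoplakin), jupa (plakoglobin) and the plakophilins pkp1b and pkp3a lay between -0.04 and 0.08, and the plakophilin pkp4 at -0.25 ± 0.09 (limma adjusted p = 0.0974). cdh1, E-cadherin, had 3942, 5489 and 4941 in day 5 mutants against 3246, 4354 and 4104 in day 5 siblings, and 5834 and 5446 in day 3 mutants against 5202 and 5774 in day 3 siblings. Its groups overlapped on both days at 0.16 ± 0.11 (adjusted p = 0.338). epcam had 16383, 17049 and 15659 in day 5 mutants against 15323, 15498 and 14378 in day 5 siblings, which were apart, at 0.10 ± 0.06 averaged (0.336). krtcap2, a subunit of the oligosaccharyltransferase that glycosylates proteins, differed by -0.01 ± 0.09 (0.947).

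For 9 of the 71 genes the probe set used lay below the limit on low signals and was not tested: anxa1d, cldn5a, cldn8.1, cldn10l2, cldn34a, cldna, cldnd, krt93 and krt95. Their signals are uncertain. A second anxa1d probe set was above the limit, and it differed by 0.04 ± 0.14 between mutants and siblings averaged (limma adjusted p = 0.872) and by 0.83 ± 0.19 between the sibling days (0.0118). krt93 had 247, 175 and 149.6 in day 5 mutants against 305, 328 and 261 in day 5 siblings. cldn5a, the claudin of the blood-brain barrier in mammals, had 201, 224 and 228 in day 5 mutants against 162, 145 and 91.9 in day 5 siblings. Both genes' mutant and sibling groups were also apart on day 3, and neither carries a test.

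On day 5 alone, 5 of the 62 genes were higher and 6 lower in mutants (limma), or 8.06% and 9.68%, against a background of 7.67% and 7.83%, so the counts were close to those of all genes tested. The higher ones were anxa2a, anxa1b, anxa6, krt18a.1 and anxa1a, and the lower ones tgm1l3, evplb, krt15, anxa5b, krt97 and krt1-19d. The tgm1l3 call carries the limit given above. anxa1a had 15677, 19535 and 17462 in day 5 mutants against 14277, 14062 and 12954 in day 5 siblings, at 0.35 ± 0.10 (adjusted p = 0.034), and leaving out any of 7 arrays ended that call (up to 0.121). krt97 lost its day 5 call, -0.42 ± 0.13 (adjusted p = 0.0458), without any array but mutant day 5 replicate 3 (up to 0.156). The krt97 call also ended with no filter on low signals, with median centring and with array weights. krt18a.1 lost its day 5 call, at 0.36 ± 0.09 (0.0215), without replicate 1 or 2 of either day 5 group or sibling day 5 replicate 3 (up to 0.0763). anxa5b lost it without mutant day 5 replicate 1 or sibling day 5 replicate 2 or 3 (up to 0.0861), and anxa6 without mutant day 5 replicate 1 or sibling day 5 replicate 3 (up to 0.0657). The 2 other tested anxa5b probe sets did not pass on day 5, at -0.40 ± 0.16 and -0.35 ± 0.16 (limma adjusted p = 0.117 and 0.168). The higher genes numbered 3 without sibling day 5 replicate 2 and 2 without sibling day 5 replicate 3. The lower genes numbered 3 without mutant day 5 replicate 1 or sibling day 5 replicate 1, and 2 without sibling day 5 replicate 2. Over all probe sets tested, the day 5 calls fell from 752 higher and 938 lower to 471 and 577 without sibling day 5 replicate 2. They also fell without the other arrays named in these counts. With each array centred on its median the split of the 62 was 7 higher and 4 lower. With the replicate number as a block, the higher genes numbered 8, and the 3 added were cldn11a (0.34 ± 0.10, adjusted p = 0.0433), oclna (0.30 ± 0.09, 0.0479) and tgm2b, given above. Counting all 71, groups were apart with mutants higher in 14 and lower in 14 (19.7% each), against 15.8% and 14.6% of all 8793 genes with a single symbol.

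On day 3 alone 1 gene passed, against a background of 1.44% higher and 0.920% lower. It was cldn11a, at 0.83 ± 0.17 (limma adjusted p = 0.0297). The call ended without sibling day 3 replicate 1, sibling day 3 replicate 2, mutant day 3 replicate 2 or sibling day 5 replicate 2 (adjusted p 0.0525 to 0.336). With 2 pools per group, groups of the 71 genes were apart with mutants higher in 17 and lower in 18 (23.9% and 25.4%), close to the 21.1% and 27.0% of all 8793 genes. The difference of the mutant effect between days had no gene past the threshold by limma in either direction, among the 62 or among all genes tested (background 0% and 0%). At an unadjusted p under 0.05 it gave 4 of the 62 (anxa1a, anxa2a, evplb and tgm1l3) and 516 of all genes tested, or 7.09%. tgm1l3 differed by -1.20 ± 0.55 between days (adjusted p = 0.75), evplb by -0.52 ± 0.17 (0.563) and anxa2a by 0.54 ± 0.18 (0.61), so the wider day 5 gaps of these genes did not pass as a change over time.

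More of the 62 genes differed between day 5 and day 3 than between mutants and siblings. In mutants, 23 of the 62 were higher and 3 lower on day 5 (37.1% and 4.84%, limma), against a background of 9.99% and 9.70%. In siblings, 23 were higher and 4 lower (37.1% and 6.45%), against a background of 9.31% and 9.77%. The median difference, day 5 minus day 3, was 0.32 in mutants and 0.26 in siblings, against 0.02 and -0.01 over all genes. Both groups shared 17 of the higher genes and 2 of the lower ones, and no gene passed in opposite directions. Other probe sets of some genes gave different calls (limma). Another cldng probe set was lower on day 5, at -1.12 ± 0.24 in mutants and -1.11 ± 0.24 in siblings (adjusted p = 0.00784 and 0.00895). Another of anxa5b was higher, at 0.81 ± 0.18 and 0.71 ± 0.18 (0.00936 and 0.0176), and another of cldn7b lower in siblings (-0.85 ± 0.21, 0.0156). The second anxa4 probe set passed in neither (0.115 and 0.187), while those of krt1-19d and krt91 passed in both. The sign was the same in 56 of the 62, or 90.3%, against 76.0% of all genes tested. The mutant and sibling differences share no array. However, same-numbered day 5 pools deviated together, so these differences may not be independent. Pearson's r between them was 0.884 over the 62 genes and 0.718 over all genes, as a description across genes, which are not independent.

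Of 13 keratins tested, 9 were higher on day 5 in mutants and 7 in siblings, and none was lower in either. The background over all genes tested was 9.99% higher and 9.70% lower in mutants, and 9.31% and 9.77% in siblings. krt97 had 12087, 12639 and 17154 in day 5 mutants against 4139 and 3725 in day 3 mutants, a difference of 1.80 ± 0.14, and 1.75 ± 0.14 in siblings (limma adjusted p = 3.45e-05 and 7.11e-05). krt15 differed by 0.85 ± 0.16 in mutants and 1.29 ± 0.16 in siblings, and krt1-19d by 0.96 ± 0.10 and 1.20 ± 0.10. The keratins lower in mutants on day 5 thus rose with age in both, but so did krt5, krt8, krt91 and krt94. The sibling age differences also use the day 5 sibling arrays of the day 5 mutant comparison, and a link between the comparisons was not tested. krt8 rose by 0.66 ± 0.09 in mutants and 0.53 ± 0.09 in siblings, and krt5 by 0.48 ± 0.12 and 0.56 ± 0.12. krt4 differed by 0.18 ± 0.10 and 0.27 ± 0.10 and krt1-19e by 0.02 ± 0.15 and -0.14 ± 0.15, and neither passed.

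tgm1l3, which passed the limit on low signals only through the day 5 siblings, had the largest difference between the sibling days of the 62. It was 2.28 ± 0.39 (limma adjusted p = 0.00266), against 1.08 ± 0.39 in mutants (0.073). With a pseudocount of 50% of the median signal the sibling value was 1.58 (adjusted p = 0.00112). evplb was similar, at 0.22 ± 0.12 in mutants (0.228) and 0.73 ± 0.12 in siblings (0.00204). The tests of the difference between days, given above, did not pass for either gene. anxa2a rose by 1.55 ± 0.13 in mutants and 1.01 ± 0.13 in siblings, and anxa2b by 1.49 ± 0.18 and 1.54 ± 0.18. cldn11a rose by 0.80 ± 0.16 in mutants and 1.28 ± 0.16 in siblings, and cldnk by 0.93 ± 0.16 and 1.03 ± 0.16. Lower on day 5 in both were anxa11b (-0.60 ± 0.12 in mutants and -0.50 ± 0.12 in siblings) and anxa3b (-0.61 ± 0.18 and -0.63 ± 0.18). evpla was lower in mutants, at -0.81 ± 0.24 (adjusted p = 0.0348), with -0.43 ± 0.24 in siblings (0.241). anxa1b and cdh1 were lower in siblings, at -0.82 ± 0.16 and -0.49 ± 0.15 (0.00547 and 0.0408), with -0.43 ± 0.16 and -0.25 ± 0.15 in mutants (0.0798 and 0.293).

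The counts of the age comparisons leaned on the day 3 pools. The calls over all probe sets tested also fell most when a day 3 pool of the same group was left out. In mutants the higher genes numbered 12 without mutant day 3 replicate 1, and the lower ones 1 without mutant day 3 replicate 1, mutant day 3 replicate 2 or mutant day 5 replicate 3. In siblings the higher genes numbered 14 without sibling day 3 replicate 2, and the lower ones 0 without that array, 1 without sibling day 3 replicate 1 and 2 without sibling day 5 replicate 1. krt97, krt15, krt1-19d, anxa2a and anxa2b passed in both mutants and siblings, and tgm1l3 in siblings, without any 1 array. cldn11a lost its mutant call without mutant day 3 replicate 1 (limma adjusted p = 0.0702), and anxa1b its sibling call without sibling day 3 replicate 2 (0.0918). cdh1 lost its sibling call without any of 6 arrays (up to 0.27), and anxa3b lost each of its calls without any of 4 (up to 0.186 in mutants and 0.266 in siblings). anxa11b lost its sibling call without either day 3 sibling array (0.0577 to 0.129). A group left with 1 array was taken to vary like the other groups.

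**Figure D4:**
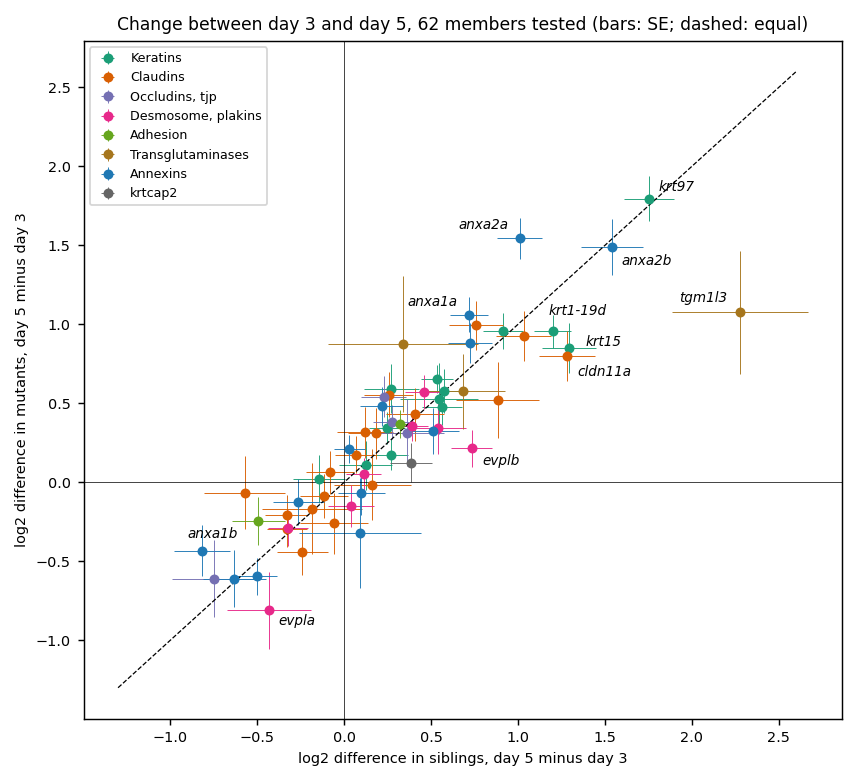
Log2 difference between day 5 and day 3 in mutants (vertical axis) against siblings (horizontal axis) for the 62 genes tested, coloured by role, with standard errors. krt97 and anxa2b lie near the dashed line of equal change, tgm1l3 and evplb below it and anxa2a above it.

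The other genes of these tissues were taken from lists. The background over all genes tested was 8.24% higher and 9.30% lower averaged, and 7.67% and 7.83% on day 5. None of 10 epidermal and epithelial transcription factors tested passed in the averaged comparison (limma), where 4 had an unadjusted p under 0.05, as had 30.9% of all genes tested. On day 5 klf17 was higher, at 0.64 ± 0.17 (adjusted p = 0.0245), and tfap2c lower, at -0.41 ± 0.12 (0.0388). tp63, a regulator of basal epidermis, differed by 0.09 ± 0.10 (adjusted p = 0.604). None of 13 cadherin, catenin and nectin genes and none of 6 hemidesmosome and basement membrane genes passed, with 1 in each list at an unadjusted p under 0.05. Of 11 polarity and ERM genes tested, 2 were lower: lin7a, at -0.64 ± 0.09 (adjusted p = 4.69e-04), and lin7b, at -0.35 ± 0.10 (0.0245), both PDZ scaffold genes that neurons also use. Of 11 periderm and mucous cell genes, 2 were higher (agr1 and s100a10b) and 3 lower (agr2, pvalb8 and muc5.1). agr2, needed for mucin production in the mouse gut, had 3220 ± 420 in day 5 mutants against 5731 ± 367 in day 5 siblings (SD, n = 3 each), at -0.72 ± 0.10 averaged (adjusted p = 3.12e-04). muc5.1, a mucin gene, differed by -0.33 ± 0.09 (0.0276). Of 8 ionocyte genes tested 2 were lower, atp1a1a.4 (-0.37 ± 0.08, adjusted p = 0.00999), a sodium pump subunit, and rhcgb (-0.51 ± 0.16, 0.0483), an ammonia transporter gene.

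Of 8 enterocyte markers tested, 3 were lower in mutants and none higher, against a background of 9.30% lower and 8.24% higher over all genes tested. fabp2, a fatty-acid binding protein of the gut, had 2867 ± 773 in day 5 mutants against 10509 ± 2613 in day 5 siblings (SD, n = 3 each), at -1.50 ± 0.17 averaged (limma adjusted p = 9.12e-05). fabp6 differed by -2.48 ± 0.30 (1.36e-04) and vil1, villin, by -0.92 ± 0.14 (5.67e-04). Of the 8, 6 had negative estimates, with a median of -0.38. The markers' summed signal was 152946 to 181799 in day 5 mutants against 148177 to 181846 in day 5 siblings, and 127535 to 137890 in day 3 mutants against 125600 to 126326 in day 3 siblings. The 3 apolipoprotein genes apoa1a, apobb.1 and apoa4b.1, none of which passed, made up 95.5% of it in day 5 mutants and 88% in day 5 siblings. The genes most like tgm1l3 over the 10 arrays, by Pearson's r of log2 signals, were chia.1 (0.984), scg2a (0.975) and ngb (0.974). Because tgm1l3 passed the limit on low signals only through the day 5 siblings, these correlations largely reflect that group. The tissue source of tgm1l3 was not tested. Of 7 endothelial markers tested 1 was higher; their summed signal was 10669 to 11675 in day 5 mutants against 9289 to 9868 in day 5 siblings, and 8236 to 9222 in day 3 mutants against 8928 to 9165 in day 3 siblings. What these markers contribute to the signals of keratins, claudins and annexins was not tested.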

How the data were processed

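The authors deposited linear MAS5 signal intensities, 1 per probe set and array, per the submitters' processing notes, which name no version; detection calls were not used here. Biotin-labelled cRNA came from 7 micrograms of total RNA, per the labels' protocols. The 2% trimmed mean was 1500.4 on each array, so the intensities had been scaled to one mean and differences are relative to the rest of the array. Of 15617 probe sets, 115 controls were left out, and platform annotation dated 2016 gave 10795 of the rest a single symbol. The 71 members had 90 probe sets, 14 had several, and the 4 shown probe sets of _s_ or _x_ type may match related genes. All 71 gene IDs were in the RefSeq gene table, with no symbol changed. No genome build or sequence table was used here.

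Log2(signal + 65) was fitted with limma 3.58.1 (R 4.3.3): 4 group means over 10 arrays, eBayes with a trend (residual degrees of freedom 6, prior 6.58), Benjamini-Hochberg over 11626 probe sets, threshold 0.05. The pseudocount of 65 equals 10% of the median signal, 647.8. The lowest 25% by mean of these log2 values was left out; the limit corresponds to a signal of 223. Log2 differences understate changes of low genes, errors on them are standard errors, and folds are of signal + 65. The number of arrays limits the precision. The labels call the replicates biological, and p-values measure the spread between pools. The fit was tested on simulated data.

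Replicate numbers are shared between mutants and siblings. Same-numbered arrays deviated together on day 5 (correlations of 0.227, 0.265 and 0.224, against -0.149 to -0.103 for different numbers). Deviations from a group mean cancel within the group, so the negative values follow from the positive ones and add no separate evidence. On day 3, with 2 arrays per group, the deviations within a group mirror each other. The same-numbered correlation (-0.0482) and the different-numbered one (0.0482) are then equal in size, so they cannot show whether day 3 pools are paired. The same-numbered day 5 correlations are the ground here for taking the numbers as pairs. The reported fit has no pair term; the fit with replicate number within day as a block (5 pairs, day 3 included) is given where it changes a call. Groups come from the titles. The series text gives 3 and 4 days where the protocol gives 72 and 120 hours. Alternatives changed the pseudocount, filter, scaling, block, array weights, conflicting label, probe set and each array. Named genes are those past the threshold in a mutant comparison or with the 8 largest differences in each direction between sibling days, the 8 with the highest mean signal, cdh1, epcam, the occludins, tp63 and sart3; the others in the text were chosen after their values were seen. The members and lists were chosen with earlier results of these data known. Lists gave 193 entries, of which 106 were on the array.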

Additional observations from a re-analysis of the deposited data

How the results depend on the processing

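Over 65 single-gene results and 1138 alternative values, 929 kept direction and side of the threshold, 209 lost the call and none reversed. The cause of the shifts below was not tested. Centring each array on its median left 5 lower genes in the averaged comparison (cldn3c, krt1-19d, krt15 and ppl dropped out, with adjusted p from 0.115 to 0.183), and put the share of higher calls over all probe sets at 58.2% averaged, 57% on day 5 and 69.8% on day 3, against 42.4%, 44.5% and 57.6% with the deposited scaling. Among the 62 genes the split was 8 higher and 5 lower averaged, and 7 higher and 4 lower on day 5. Quantile normalization gave 5 lower genes with age in mutants, and it ended the averaged calls of krt4 and cldni. Without the filter on low signals the averaged calls of krt4, cldni and krt15 ended. Array weights gave 1 lower gene on day 3, 9 lower with age in siblings and 1 lower with age in mutants. With the replicate block the day 5 higher genes numbered 8; averaged, it gave 9 higher and 9 lower, adding tgm2b, krt17, cldn12, cldn15la and anxa2b (adjusted p 0.00407, 0.0264, 0.0371, 0.0349 and 0.0377) and losing cldni, krt1-19d, krt4 and ppl (0.0528, 0.0633, 0.107 and 0.0576). It changed no other call of a named gene, and cannot be fitted for the age comparisons, where replicates are nested in days. Counting sibling day 3 replicate 2 as a mutant left 2 higher (anxa1b and anxa2a) and 1 lower gene (evplb) averaged, 0 higher on day 3, and 12 higher and 0 lower with age in siblings. Leaving out 1 array at a time, the averaged counts were 3 to 8 higher and 3 to 12 lower, day 5 counts 2 to 5 and 2 to 8, day 3 counts 0 to 1 and 0 to 1, and the difference between days 0 to 0. With age they were 12 to 24 higher and 1 to 4 lower in mutants, and 14 to 23 and 0 to 6 in siblings. With 2 or 3 arrays per group and no detection calls, differences of genes with signals near 223 and small differences close to the threshold are limited most.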
